A study of Homo sapiens with 24 samples.

Results

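TXNIP, its alpha-arrestin relatives ARRDC1 to ARRDC4, and the transcription factors MLXIP and MLXIPL were followed in 24 RNA-seq libraries made from HepG2, a liver cell line of human hepatocellular carcinoma origin. These 7 genes were taken by symbol from the 34618 genes of the count table, and all 7 passed the filter on low counts that left 14887 genes for testing. They were chosen by measured values of these libraries, the far higher TXNIP and ARRDC4 levels of the knockdown lines relative to the control line, so the levels before the drug are given against the control line as a description, with no test. The cells stably carried a lentiviral hairpin against METTL14 (shMETTL14), a hairpin against SETD2 (shSETD2) or a non-specific control hairpin (shCtrl), and all lines had been selected with 1 ug/mL puromycin. Each line was sampled untreated (0 h) and after 1, 3 and 6 h in 5 ug/mL actinomycin D, which blocks RNA synthesis, with 2 libraries for each of the 12 combinations. The series' design text calls the pairs biological replicates without saying how the cultures were kept apart, so a p-value speaks only of the spread among these libraries. METTL14 is a subunit of the enzyme that writes N6-methyladenosine on RNA, and SETD2 places the H3K36 trimethylation mark on histones. The labels do not state whether a line is a pool or a clone, nor the glucose content of the medium.

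TXNIP (thioredoxin-interacting protein) binds thioredoxin and, as an alpha-arrestin, drives the removal of glucose transporters from the cell surface. Its transcription rises when glucose metabolites accumulate: MondoA, the product of MLXIP, or ChREBP, the product of MLXIPL, pairs with MLX and binds paired E-boxes called carbohydrate response elements. ARRDC4, the closest relative of TXNIP, is known to respond to glucose through the same factors, and in liver ChREBP also drives glycolytic and lipogenic enzymes. ARRDC1, ARRDC2 and ARRDC3 are further alpha-arrestins, adaptors that bring NEDD4-family ubiquitin ligases to membrane proteins.

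The upstream sequences of TXNIP and ARRDC4 are shown because both were chosen for their higher levels in the knockdown lines. A carbohydrate response element is the feature by which glucose is known to reach them. Each run is the 250 bases before the annotated start in RefSeq (GRCh38.p14), printed 5′ to 3′ on the strand of the gene, and capitals mark a match to the carbohydrate response type or to the E-box CACGTG. All 7 genes had an entry, with 10 starts in all.

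TXNIP, chr1:145996580-145996829, minus strand: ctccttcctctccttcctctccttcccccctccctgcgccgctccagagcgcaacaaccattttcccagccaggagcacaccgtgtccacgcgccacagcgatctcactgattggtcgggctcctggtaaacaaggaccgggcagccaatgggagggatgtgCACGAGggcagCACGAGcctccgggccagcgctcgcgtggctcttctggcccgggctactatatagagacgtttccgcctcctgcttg
ARRDC4, chr15:97960453-97960702, plus strand: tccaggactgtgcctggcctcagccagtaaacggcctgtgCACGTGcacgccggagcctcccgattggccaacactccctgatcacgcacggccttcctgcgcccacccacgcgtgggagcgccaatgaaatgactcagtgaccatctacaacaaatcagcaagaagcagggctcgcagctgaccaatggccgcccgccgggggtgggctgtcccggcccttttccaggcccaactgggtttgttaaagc

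The carbohydrate response type was searched as CACGNG and CNCGNG with 5 bases between them, on both strands. TXNIP held 1 match, whose first base lies 88 bases before the start, and none of the other 9 windows of the 7 genes held one. Of 35116 promoter windows of the same length in RefSeq, 149 held it, or 0.424%. ARRDC4 held the E-box CACGTG once, 210 bases before its start, a match found in 6.35% of all windows and in no other window of the 7 genes. CCAAT, sought on both strands, had 2 matches in the TXNIP window shown and 3 in that of ARRDC4. It had 1 match in 1 window each of ARRDC3, ARRDC2, ARRDC1 and MLXIP, and none in the rest of the 10 windows, among them the second of TXNIP. At least 1 match was found in 32.0% of all windows, and the share with more than 1 was not counted. A match is a description of these letters and not evidence of binding.

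Library totals ran from 18.3 M to 31.4 M counts, so that 3 counts correspond to between 0.0936 and 0.196 CPM (counts scaled to library size, with TMM factors), and such limits cover counting error only. METTL14 was at 48.8% of the shCtrl level in shMETTL14 cells at 0 h (14.5 ± 0.76 CPM against 29.7 ± 0.53 CPM; SD, n = 2 each), and SETD2 was at 66.4% in shSETD2 cells (86.0 ± 6.1 CPM against 130 ± 1.3 CPM). The 9 hepatocyte markers were present in every library, and summed to between 59726 and 122434 CPM in shMETTL14, 100104 and 184966 CPM in shSETD2 and 51966 and 99717 CPM in shCtrl. Of markers of other cell types, 4 of 7 blood genes, 4 of 6 fibroblast genes and 1 of 3 endothelial genes stayed under 1 CPM everywhere, with PTPRC, CD3E, DCN and KDR at 0. The rest exceeded it in some library. Of the fibroblast list these were PDGFRB (7.59 to 48.9 CPM) and COL1A1 (4.03 to 19.1 CPM). Besides LYZ, CD14 reached 3.95 CPM and CD3D 2.60 CPM, and of the endothelial list CDH5 reached 2.04 CPM and VWF 1.01 CPM. The summed blood list ran from 2074 to 5059 CPM in shMETTL14, 1371 to 2613 CPM in shSETD2 and 1047 to 2418 CPM in shCtrl, nearly all of it lysozyme (LYZ, 1044 to 5053 CPM). The summed fibroblast list ran from 28.6 to 59.8 CPM, from 18.5 to 40.6 CPM and from 13.4 to 22.2 CPM in the same order of lines, and the summed endothelial list reached at most 2.84 CPM. The part of these lists in the level differences was not tested, and in bulk RNA fewer cells of a kind and less RNA per cell cannot be told apart.

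TXNIP (ENSG00000117289; GRCh37 chromosome 1, 145438469 to 145442635) had 204 and 204 CPM in the untreated shMETTL14 libraries, 75.3 and 74.8 CPM in shSETD2 and 7.51 and 6.86 CPM in shCtrl. The pairs lay far apart and did not overlap: the mean was 28.4 times the shCtrl mean in shMETTL14 and 10.45 times in shSETD2. ARRDC4 (ENSG00000140450; chromosome 15, 98462784 to 98517068) had 13.5 and 15.2 CPM in shMETTL14, 5.44 and 6.10 CPM in shSETD2 and 1.26 and 1.34 CPM in shCtrl. The order of the lines was the same as for TXNIP, at 11.005 times the shCtrl mean in shMETTL14 and 4.42 times in shSETD2. The shCtrl values of ARRDC4 rest on 32 and 39 counts, and those of TXNIP on 190 and 199.

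**Figure D1:**
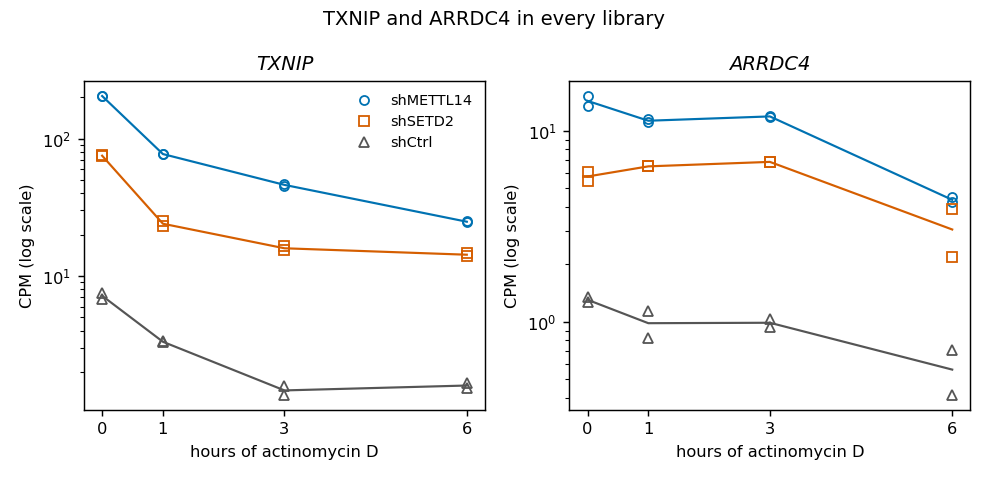
CPM (log scale) of TXNIP and ARRDC4 in each of the 24 libraries against hours of actinomycin D, with points for libraries and lines through the 2-library means of shMETTL14, shSETD2 and shCtrl. At each time the shMETTL14 points lie highest and the shCtrl points lowest, while TXNIP falls within the first hour and ARRDC4 mainly after 3 h.

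The other alpha-arrestins differed less between the lines, by less than 2 times in any pair of means. ARRDC3 (ENSG00000113369; chromosome 5, 90664541 to 90679176), an adaptor that sorts receptors such as the beta2-adrenergic receptor, averaged 11.96 ± 1.03 CPM in shMETTL14, 11.2 ± 0.44 CPM in shSETD2 and 6.38 ± 0.59 CPM in shCtrl. Its knockdown libraries overlapped each other and lay above both shCtrl libraries. ARRDC2 (ENSG00000105643; chromosome 19, 18111941 to 18124911) averaged 6.04 ± 0.11 CPM in shMETTL14, 3.96 ± 0.34 CPM in shSETD2 and 5.97 ± 0.73 CPM in shCtrl, so only the shSETD2 pair stood apart, below the rest. ARRDC1 (ENSG00000197070; chromosome 9, 140500106 to 140509812), known for releasing vesicles at the cell membrane, averaged 10.1 ± 0.95 CPM, 7.45 ± 0.68 CPM and 8.64 ± 0.18 CPM in the same order. It shares 29 bases with C9orf37 on the opposite strand, and whether strand was used in counting is not given, so its values carry that uncertainty.

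Neither transcription factor gene had the order of TXNIP. MLXIP (ENSG00000175727; chromosome 12, 122516628 to 122631894) averaged 58.5 ± 2.2 CPM in shMETTL14, 46.6 ± 1.3 CPM in shSETD2 and 59.2 ± 1.5 CPM in shCtrl. MLXIPL (ENSG00000009950; chromosome 7, 73007524 to 73038873) averaged 48.8 ± 1.1 CPM in shMETTL14, 65.3 ± 0.79 CPM in shSETD2 and 57.7 ± 0.50 CPM in shCtrl. For MLXIP the shSETD2 pair was lowest, and for MLXIPL it was highest with no overlap between lines. The higher MLXIPL level in shSETD2 depends on the scaling. Its log2 difference from shCtrl was 0.18 with TMM factors and 0.02 with libraries scaled by size alone.

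Per length of transcript, TXNIP changed its place among the 7 genes. On the RPKM scale, which divides by transcript length as well as by library size, it had rank 1 in shMETTL14, at 67.0 ± 0.11 RPKM, and rank 1 in shSETD2, at 21.3 ± 0.055 RPKM, but rank 4 in shCtrl, at 2.27 ± 0.14 RPKM (SD, n = 2 each). MLXIPL had rank 1 in shCtrl at 13.7 ± 0.081 RPKM and rank 2 in both knockdown lines. ARRDC4 was the lowest of the 7 in shCtrl, at 0.363 ± 0.017 RPKM, and had rank 4 in shMETTL14, at 4.15 ± 0.36 RPKM, above ARRDC1 (3.14 ± 0.29 RPKM) and ARRDC3 (2.89 ± 0.25 RPKM). ARRDC2 was the lowest in shMETTL14 (1.55 ± 0.027 RPKM) and in shSETD2 (0.880 ± 0.076 RPKM).

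**Figure D2:**
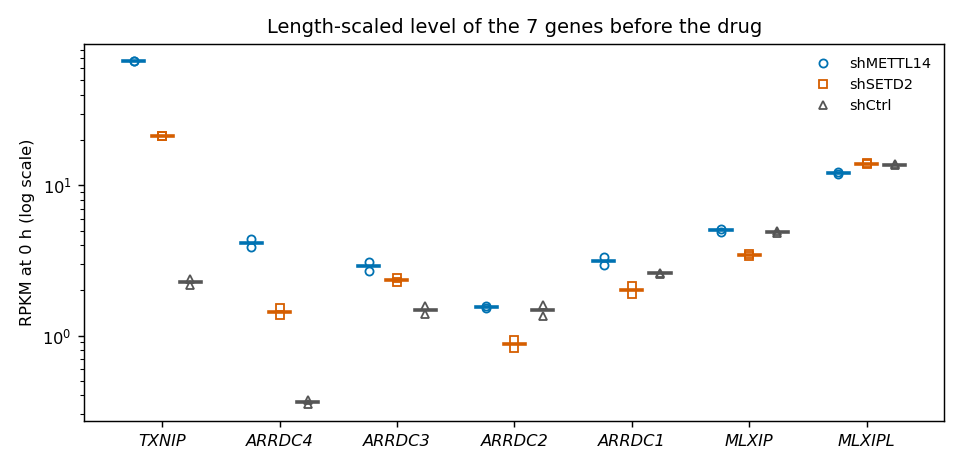
RPKM (log scale) of the 7 genes in the untreated libraries, with points for libraries and bars for the mean of 2. TXNIP spans 67.0 RPKM in shMETTL14 to 2.27 RPKM in shCtrl, while MLXIPL stays between 12.1 and 13.95 RPKM.

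The knockdown lines were set against each other at 0 h. TXNIP and ARRDC4 were picked for their high values in these same knockdown libraries, so their differences are a description with no test: TXNIP was 2.72-fold higher in shMETTL14 than in shSETD2 (log2 difference 1.44 ± 0.054 SE) and ARRDC4 2.47-fold higher (1.31 ± 0.12). Of the other 5 genes, 3 were higher and 1 was lower in shMETTL14 at an adjusted p under 0.05 (edgeR quasi-likelihood test, Benjamini-Hochberg adjustment over 14887 genes), where 52.2% of all genes were called, 23% higher and 29.2% lower. ARRDC2 (0.61 ± 0.15, adjusted p = 0.00147), ARRDC1 (0.44 ± 0.14, adjusted p = 0.0107) and MLXIP (0.33 ± 0.069, adjusted p = 0.000373) were higher in shMETTL14. The call on ARRDC1 was lost when the second shSETD2 library (adjusted p = 0.101) or the first shMETTL14 library (adjusted p = 0.132) was left out. MLXIPL was lower in shMETTL14 (-0.42 ± 0.089, adjusted p = 0.000434), a call lost when libraries were scaled by size alone (-0.21, adjusted p = 0.0599) and by limma on RPKM (-0.20, adjusted p = 0.0871). The ARRDC3 difference did not pass (0.10 ± 0.10, adjusted p = 0.441), but passed with scaling by library size alone (0.31, adjusted p = 0.0129) and by limma (0.26, adjusted p = 0.0231).

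**Figure D3:**
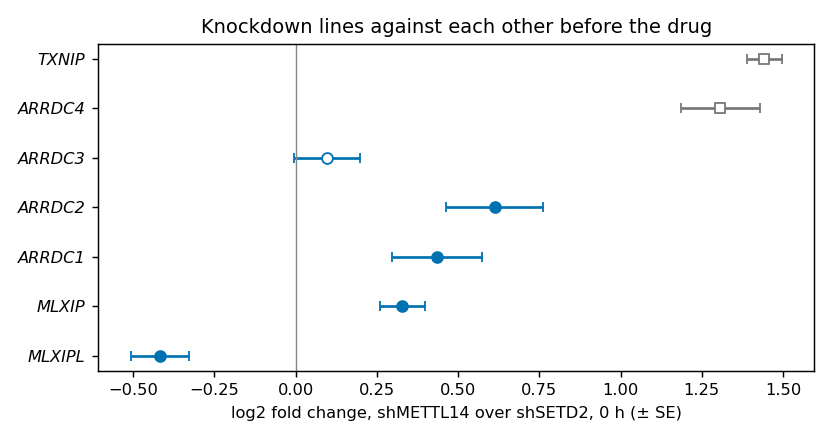
Log2 fold change of shMETTL14 over shSETD2 at 0 h for the 7 genes, with SE bars from the edgeR fit on 2 libraries per group. Squares mark TXNIP (1.44) and ARRDC4 (1.31), described without a test. Among the circles, filled where the adjusted p was under 0.05, MLXIPL (-0.42) lies to the left and ARRDC3 is the open point.

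Under actinomycin D the level of each RNA relative to the other RNA of its library follows how fast it is lost. No spike-in counts were in the table, so a gene that is lost more slowly than most rises on this scale. TXNIP was lost fast in all lines. At 0, 1, 3 and 6 h it averaged 204, 77.2, 46.0 and 24.8 CPM in shMETTL14, then 75.1, 24.0, 15.9 and 14.3 CPM in shSETD2, and 7.18, 3.32, 1.47 and 1.60 CPM in shCtrl. After 1 h it had fallen to 37.8% of the 0 h level in shMETTL14 (log2 change -1.40 ± 0.054, adjusted p = 4.02e-15), to 32.0% in shSETD2 (-1.65 ± 0.059, adjusted p = 2.01e-15) and to 46.3% in shCtrl (-1.11 ± 0.098, adjusted p = 9.95e-09). These changes start from the untreated libraries on which TXNIP was chosen, so their p-values are not independent of that choice. After 6 h it stood at 12.2%, 19.04% and 22.2% of the 0 h level in the same order of lines. The libraries of shMETTL14 kept losing TXNIP between 3 and 6 h, with 54.0% of the 3 h mean left, whereas 89.8% was left in shSETD2 and 109% in shCtrl, where the 3 h and 6 h libraries overlapped on 26 to 38 counts each. TXNIP at 6 h in shMETTL14 (24.7 and 25.0 CPM) exceeded untreated shCtrl cells (6.86 and 7.51 CPM). In the order of all 12 groups, only the 6 h shMETTL14 and 1 h shSETD2 pairs, and the 6 h and 3 h shCtrl pairs, overlapped their neighbour.

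ARRDC4 was kept for hours and then lost. In shMETTL14 it averaged 14.4, 11.3, 11.9 and 4.35 CPM at 0, 1, 3 and 6 h. In shSETD2 it averaged 5.77, 6.52, 6.88 and 3.04 CPM, and in shCtrl 1.30, 0.984, 0.989 and 0.562 CPM. At 3 h the means were 82.9%, 119% and 75.8% of the 0 h level, and at 6 h 30.3%, 52.8% and 43.1%. As for TXNIP, the p-values of changes from 0 h are not independent of the choice of ARRDC4, which used the untreated libraries. The fall at 6 h against 0 h passed in shMETTL14 (-1.72 ± 0.14, adjusted p = 1.17e-10), in shSETD2 (-0.95 ± 0.18, adjusted p = 5.14e-05) and in shCtrl (-1.23 ± 0.34, adjusted p = 0.00290), the last on 8 and 12 counts at 6 h. Without the first 6 h library the shCtrl call was lost (-0.88, adjusted p = 0.0762). At 1 h only the shMETTL14 change passed (-0.34 ± 0.11, adjusted p = 0.0162), and it was lost without the second 0 h library or either 1 h library of that line (adjusted p between 0.0503 and 0.139). In shSETD2 all 4 libraries at 1 and 3 h lay above the 0 h pair, a change of 0.17 ± 0.14 at 1 h that did not pass (adjusted p = 0.375). The 6 h shSETD2 pair was spread widely, at 2.18 and 3.91 CPM.

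**Figure D4:**
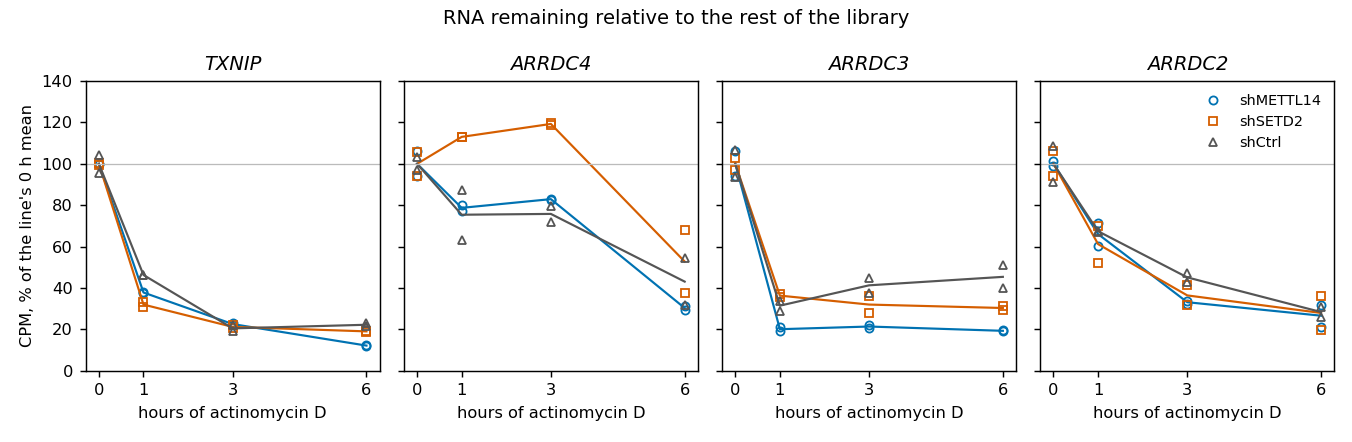
CPM as a percentage of the mean at 0 h of the same line, for TXNIP, ARRDC4, ARRDC3 and ARRDC2, with points for libraries and lines through the means of 2. TXNIP and ARRDC3 drop within 1 h, ARRDC2 falls steadily to between 26.6% and 28.4%, and ARRDC4 stays above 75% on average until 3 h.

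ARRDC3 lost most of its RNA, relative to the library, in the first hour. It averaged 11.96, 2.40, 2.56 and 2.31 CPM at 0, 1, 3 and 6 h in shMETTL14, and 11.2, 4.06, 3.58 and 3.39 CPM in shSETD2. In shCtrl it averaged 6.38, 2.01, 2.63 and 2.90 CPM. The first-hour fall was to 20.1% in shMETTL14 (-2.31 ± 0.13, adjusted p = 3.48e-12), to 36.3% in shSETD2 (-1.46 ± 0.12, adjusted p = 2.78e-09) and to 31.5% in shCtrl (-1.67 ± 0.15, adjusted p = 9.72e-09). After the first hour the means of shMETTL14 and shSETD2 stayed near their 1 h values or lower, whereas in shCtrl the 3 h pair (2.41 and 2.86 CPM) and the 6 h pair (2.54 and 3.25 CPM) lay above the 1 h pair (1.85 and 2.16 CPM). In shMETTL14 this fall lies at the 0.423 percentile of all genes. At 3 h the shMETTL14 libraries overlapped those of shCtrl (2.48 and 2.64 CPM in shMETTL14).

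ARRDC2 fell steadily in the means of all lines. It stood at 66.0%, 61.2% and 67.4% of its 0 h level at 1 h in shMETTL14, shSETD2 and shCtrl, and at 26.6%, 27.9% and 28.4% at 6 h. The fall at 6 h passed in each line (-1.89 ± 0.20, -1.80 ± 0.24 and -1.83 ± 0.20; adjusted p of 9.57e-09, 5.79e-07 and 2.15e-08). The fall at 1 h passed in each line as well (adjusted p = 0.00264, 0.00552 and 0.00567), but leaving out 1 library took the adjusted p to between 0.0558 and 0.0964 in every line. At its lowest ARRDC2 rested on 12 counts in a library.

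ARRDC1 and MLXIPL stood above their 0 h means at 6 h in every line, and MLXIP stayed near its own. MLXIPL rose on this relative scale in every line, from the first hour: to 140% of the 0 h level at 1 h in shMETTL14 (0.48 ± 0.089, adjusted p = 0.000204), 162% in shSETD2 (0.70 ± 0.087, adjusted p = 2.22e-06) and 136% in shCtrl (0.45 ± 0.088, adjusted p = 0.000518). At 6 h it stood at 166%, 245% and 193%, with adjusted p of 1.51e-07, 8.90e-12 and 1.98e-09. The shSETD2 pair at 6 h was far apart, at 179 and 141 CPM, yet both exceeded all other libraries of the gene. ARRDC1 stood at 126%, 175% and 135% of its 0 h level at 6 h (0.34 ± 0.13, 0.81 ± 0.14 and 0.44 ± 0.14; adjusted p of 0.0294, 3.07e-05 and 0.00854). At 1 h the ARRDC1 change passed in shSETD2 (0.43 ± 0.14, adjusted p = 0.0223), a call lost without the second 0 h library (adjusted p = 0.168) or the first 1 h library (adjusted p = 0.343) of that line and by limma on RPKM (adjusted p = 0.0724). In shMETTL14 it passed when the second 1 h library was left out (0.41, adjusted p = 0.0317). With libraries scaled by size alone the ARRDC1 change at 6 h in shMETTL14 turned to -0.10 and that in shCtrl shrank to 0.09. Leaving out single libraries also ended those 2 calls (adjusted p between 0.157 and 0.218 in shMETTL14, and between 0.0872 and 0.162 in shCtrl).

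The MLXIP means lay between 98.5% and 111% of its 0 h mean at any time in any line. By edgeR with TMM factors no change of MLXIP at 1 or 6 h passed, with the smallest adjusted p at 0.0588 for 6 h in shSETD2. That change passed as a rise with RLE factors (0.25, adjusted p = 0.00451), by DESeq2 (0.25, adjusted p = 0.00356), at a mean of at least 5 CPM (0.20, adjusted p = 0.0209) and without the second 6 h library (0.27, adjusted p = 0.00196). With library size alone the 6 h change turned to -0.39 in shMETTL14 and passed as a fall (adjusted p = 3.83e-05), and it turned to -0.13 in shSETD2. In shCtrl, at -0.02 with TMM factors, it passed as a fall by size alone (-0.37, adjusted p = 9.37e-05) and at 5 CPM (-0.16, adjusted p = 0.0497). By limma on RPKM the falls in shMETTL14 (-0.35, adjusted p = 0.000280) and shCtrl (-0.33, adjusted p = 0.000518) passed as well. Scaling by size alone moved the median of all genes to -0.38 in shMETTL14, -0.29 in shSETD2 and -0.27 in shCtrl. Counted over the 7 genes, 5 changes passed at 1 h in shMETTL14 (1 higher, 4 lower), 5 in shSETD2 (2 higher, 3 lower) and 4 in shCtrl (1 higher, 3 lower). Of all genes, 39.1% were called at 1 h in shMETTL14 (23.1% higher, 16% lower), 28.8% in shSETD2 (12.6% higher, 16.1% lower) and 29.7% in shCtrl (13.8% higher, 15.9% lower). At 6 h 6 of the 7 passed in every line, 2 higher and 4 lower, where 72.2% of all genes were called in shMETTL14 (37.6% higher, 34.6% lower), 69.1% in shSETD2 (33.6% higher, 35.5% lower) and 70.1% in shCtrl (36.9% higher, 33.2% lower). The counts over the 7 genes include TXNIP and ARRDC4, which were chosen on the 0 h libraries used here as the start.

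**Figure D5:**
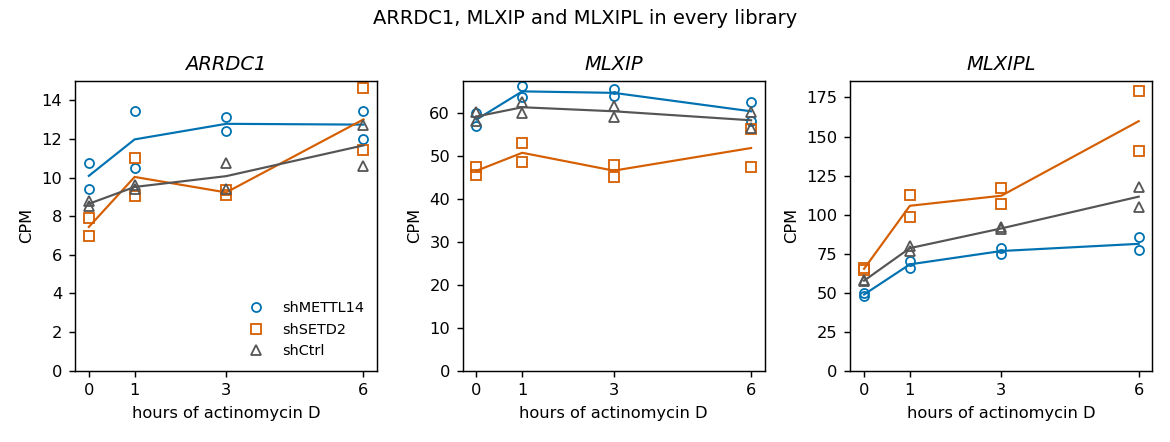
CPM of ARRDC1, MLXIP and MLXIPL in each library against hours of actinomycin D, with axes from 0 and lines through the means of 2. MLXIPL climbs in every line, to 160 CPM in shSETD2 at 6 h, against 81.3 CPM in shMETTL14 and 112 CPM in shCtrl, while MLXIP stays between 45.3 and 66.4 CPM.

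The knockdown lines were then compared with shCtrl over the mean of 1, 3 and 6 h. TXNIP and ARRDC4 are described without a test: TXNIP was 22.3-fold higher in shMETTL14 and 8.84-fold higher in shSETD2, and ARRDC4 10.3-fold and 6.29-fold higher. Of the other 5 genes, 1 was higher and 1 lower in shMETTL14, where 67% of all genes were called (33.6% higher, 33.4% lower). In shSETD2 2 were higher and 2 lower, where 59.4% of all genes were called (26.6% higher, 32.9% lower). In shMETTL14 ARRDC1 was higher (0.27 ± 0.078, adjusted p = 0.00453) and MLXIPL lower (-0.30 ± 0.051, adjusted p = 1.54e-05), while the ARRDC3 difference was -0.03 ± 0.11 (adjusted p = 0.833). In shSETD2 ARRDC3 (0.57 ± 0.099, adjusted p = 3.30e-05) and MLXIPL (0.42 ± 0.050, adjusted p = 1.95e-07) were higher, whereas ARRDC2 (-0.73 ± 0.14, adjusted p = 0.000103) and MLXIP (-0.27 ± 0.041, adjusted p = 4.90e-06) were lower. MLXIPL thus stood on opposite sides of shCtrl in the knockdown lines.

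The slope of log2 CPM over 1, 3 and 6 h asked whether loss of these RNAs after 1 h differed from that in shCtrl. It leaves out the untreated libraries and so cannot speak of the first hour. By 1 h TXNIP already stood at 32.0% to 46.3% of its 0 h level, and ARRDC3 at 20.1% to 36.3%. The first-hour change of a knockdown line was not tested against that of shCtrl. None of the 7 genes passed in shMETTL14 or in shSETD2 by edgeR, where 2.94% (0.665% higher, 2.27% lower) and 2.77% (0.672% higher, 2.1% lower) of all genes were called. At an unadjusted p under 0.05 there were 3 genes in shMETTL14 (TXNIP, ARRDC3 and MLXIPL) and 1 in shSETD2 (ARRDC3), DESeq2 also called 0 in each, and limma on RPKM called 2 and 1. The TXNIP slope was -0.32 log2 per h in shMETTL14, -0.14 in shSETD2 and -0.19 in shCtrl. Its difference from shCtrl was -0.13 ± 0.035 in shMETTL14 (adjusted p = 0.105) and 0.05 ± 0.034 in shSETD2 (adjusted p = 0.651). By limma on the deposited RPKM values the shMETTL14 difference passed (-0.23, adjusted p = 1.26e-07), but TXNIP in shCtrl at 3 and 6 h (0.398 and 0.396 RPKM) lies under the pseudocount of 0.5. The ARRDC4 difference was -0.12 ± 0.086 in shMETTL14 (adjusted p = 0.599) and -0.07 ± 0.088 in shSETD2 (adjusted p = 0.771). For ARRDC3 it was -0.11 ± 0.053 (adjusted p = 0.327) and -0.15 ± 0.050 (adjusted p = 0.116), with a slope of 0.10 log2 per h in shCtrl. For the other 4 genes the differences lay between -0.05 and 0.00 in shMETTL14 and between 0.02 and 0.03 in shSETD2.

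The first-hour change was compared between the knockdown lines. None of the 7 genes passed by edgeR or by DESeq2, where edgeR called 0.128% of all genes (0.0403% higher, 0.0873% lower), nor by limma on RPKM, and 3 had an unadjusted p under 0.05 (TXNIP, ARRDC4 and ARRDC3). For ARRDC3 the first-hour change in shMETTL14 minus that in shSETD2 was -0.85 ± 0.18 log2 (adjusted p = 0.0592), a difference that passed with scaling by library size alone (adjusted p = 0.0209) and with no filter on low counts (adjusted p = 0.0263). For TXNIP the difference was 0.24 ± 0.079 (adjusted p = 0.345) and for ARRDC4 -0.51 ± 0.17 (adjusted p = 0.388), both resting on the 0 h libraries used to choose these genes. The other 4 genes lay between -0.22 and 0.09, with adjusted p of 0.650 or more.

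The authors' deposited table of half-lives lists 5 of the 7 genes. In the authors' deposited table the TXNIP half-life was 1.70 h in shMETTL14, 2.14 h in shSETD2 and 2.44 h in shCtrl, and only 5.53%, 13.2% and 11% of the listed genes had a shorter one. For ARRDC4 the authors' deposited table gives 2.52, 3.31 and 4.25 h, and for ARRDC2 2.19, 2.46 and 2.82 h. For ARRDC3 the authors' deposited table gives 2.43 and 2.82 h in shMETTL14 and shSETD2, against 6.14 h in shCtrl, and for MLXIP 7.62 and 9.19 h, against 12.5 h. All 5 genes were thus listed with shorter half-lives in the knockdown lines, as were 88.8% of 7772 genes in shMETTL14 and 88.2% in shSETD2 in the authors' deposited table. The medians over all genes of the authors' deposited table were 4.31, 4.13 and 6.02 h. Among these 5 genes TXNIP has the shortest half-life in each line of the authors' deposited table, which gives no error for its values. By the levels above, ARRDC3 in shCtrl fell to 31.5% within 1 h and then rose, a course that a half-life of 6.14 h does not describe. In the first hour ARRDC3 fell further than TXNIP in shMETTL14 (20.1% against 37.8%) and shCtrl (31.5% against 46.3%). In shSETD2 it fell less far (36.3% against 32.0%).

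Genes of the surrounding pathways were examined at 0 h by lists put together with earlier results of these data known. At 0 h 48.1% of all genes were called in shMETTL14 against shCtrl (23.1% higher, 25.1% lower) and 40.6% in shSETD2 (21.6% higher, 18.9% lower). Of 21 tested targets of carbohydrate response factors, 11 were higher and 6 lower in shMETTL14 (median log2 difference 0.41, against -0.01 over all genes), and 13 higher and 3 lower in shSETD2 (0.82, against 0.02). In shMETTL14 the largest changes were in G6PC, the catalytic subunit of glucose-6-phosphatase (8.07 ± 0.51 CPM against 0.182 ± 0.035 CPM, adjusted p = 8.12e-14), in BHLHE41, a circadian repressor (0.887 ± 0.16 CPM against 0.148 ± 0.014 CPM, adjusted p = 9.62e-05), and in SLC2A2, the glucose transporter of hepatocytes (34.0 ± 0.67 CPM against 6.84 ± 0.12 CPM, adjusted p = 2.01e-15). In shSETD2 they were G6PC (7.601 ± 0.495 CPM, adjusted p = 1.11e-13), PKLR, the liver pyruvate kinase (14.6 ± 0.49 CPM against 3.06 ± 0.25 CPM, adjusted p = 1.40e-12), and GPD1, a glycerol phosphate dehydrogenase (28.0 ± 0.71 CPM against 5.89 ± 0.0060 CPM, adjusted p = 3.59e-15). The G6PC and BHLHE41 values in shCtrl rest on few counts. The 6 lower genes in shMETTL14 were HK2 (log2 difference -1.18), PFKFB3 (-0.89), FASN (-0.64), ACACA (-0.64), ACLY (-0.21) and SCD (-0.11). In shSETD2 the 3 lower genes were PFKFB3 (-1.80), AGPAT2 (-1.64) and HK2 (-0.40), whereas FASN, ACACA, ACLY and SCD were higher. Set against shSETD2, 5 targets were higher and 12 lower in shMETTL14 (median -0.30, against -0.03 over all genes). Of all genes 52.2% were called there.

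Among 17 tested glucose transporters and enzymes of hexose phosphorylation, 9 were higher and 5 lower in shMETTL14, and 9 higher and 6 lower in shSETD2. Over all genes 48.1% were called in shMETTL14 (23.1% higher, 25.1% lower) and 40.6% in shSETD2 (21.6% higher, 18.9% lower). SLC2A1, the widespread glucose transporter that TXNIP removes from the membrane, had 721 ± 10 CPM in shMETTL14, which did not pass against 765 ± 4.1 CPM in shCtrl (adjusted p = 0.172). In shSETD2 it was lower, at 381 ± 9.9 CPM (-1.004 ± 0.0516, adjusted p = 3.13e-13). HK1, a hexokinase, was higher in shMETTL14 (8.73 ± 0.61 CPM against 2.25 ± 0.11 CPM, adjusted p = 7.94e-10) and lower in shSETD2 (1.18 ± 0.21 CPM, adjusted p = 0.00306). GCKR, the glucokinase regulator, was higher in both, at 9.02 ± 0.88 CPM in shMETTL14 (adjusted p = 6.93e-07) and 9.99 ± 0.15 CPM in shSETD2 (adjusted p = 1.25e-07), against 4.28 ± 0.13 CPM in shCtrl.

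Of 10 tested partners of MondoA and ChREBP and genes of the MYC and MAX network, 1 was higher and 7 lower in shMETTL14, and 2 higher and 3 lower in shSETD2. The shares over all genes were 48.1% called in shMETTL14 (23.1% higher, 25.1% lower) and 40.6% in shSETD2 (21.6% higher, 18.9% lower). MLX, the common partner, had 39.3 ± 0.31 CPM in shMETTL14 (-0.24 ± 0.070, adjusted p = 0.00588) and 45.5 ± 2.9 CPM in shSETD2 (adjusted p = 0.744), against 46.6 ± 0.45 CPM in shCtrl. MYC, a growth-promoting factor of the same network, was lower in both, at 104 ± 2.8 CPM in shMETTL14 (adjusted p = 1.65e-09) and 153 ± 0.19 CPM in shSETD2 (adjusted p = 0.0197), against 174 ± 2.4 CPM. In shMETTL14 the repressor MXD1 (-0.97 ± 0.076) and MYCL (-1.03 ± 0.24) were also lower. MAX was higher in both (0.21 ± 0.075 in shMETTL14 and 0.31 ± 0.075 in shSETD2) and MXI1 lower in both (-0.26 ± 0.099 and -0.42 ± 0.10). In shSETD2 MXD4 was higher (0.36 ± 0.090).

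In the thioredoxin and peroxiredoxin system, which TXNIP restrains, 1 of 16 genes was higher and 5 lower in shMETTL14, and 8 were higher and 2 lower in shSETD2. Calls over all genes made up 48.1% in shMETTL14 (23.1% higher, 25.1% lower) and 40.6% in shSETD2 (21.6% higher, 18.9% lower). TXN, the thioredoxin bound by TXNIP, was lower in shMETTL14 (60.9 ± 1.5 CPM against 86.7 ± 1.2 CPM, adjusted p = 8.40e-08), as was its reductase TXNRD1 (153 ± 2.7 CPM against 260 ± 2.0 CPM, adjusted p = 1.48e-11). In shSETD2 TXN had 89.9 ± 1.2 CPM, which did not pass (adjusted p = 0.464). The glutaredoxin GLRX was higher in both, at 61.5 ± 1.0 CPM in shMETTL14 (adjusted p = 2.86e-09) and 54.5 ± 1.0 CPM in shSETD2 (adjusted p = 3.77e-07), against 38.2 ± 0.86 CPM in shCtrl, while PRDX6 was higher in shSETD2 (0.35 ± 0.040). GLRX2, another glutaredoxin, was lower in shMETTL14 (8.06 ± 0.86 CPM, adjusted p = 0.0257) and higher in shSETD2 (13.5 ± 0.47 CPM, adjusted p = 0.00781), against 10.2 ± 0.92 CPM in shCtrl.

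Of 7 tested NEDD4-family ligases, the enzymes that alpha-arrestins recruit, 1 was higher and 1 lower in shMETTL14, and 2 were higher and 3 lower in shSETD2. For these and the arrestin-fold genes below, the shares called over all genes were 48.1% in shMETTL14 and 40.6% in shSETD2. These divide into 23.1% higher and 25.1% lower in shMETTL14, and 21.6% higher and 18.9% lower in shSETD2. ITCH, which binds TXNIP, had 212 ± 1.9 CPM in shMETTL14 (adjusted p = 0.0744) and 234 ± 5.3 CPM in shSETD2 (adjusted p = 0.994), against 234 ± 3.5 CPM in shCtrl. NEDD4 was higher in shMETTL14 (0.24 ± 0.071) and lower in shSETD2 (-0.26 ± 0.073), and SMURF1 was lower in both (-0.15 ± 0.056 and -0.41 ± 0.057). SMURF2 was lower in shSETD2 (-0.34 ± 0.077). Of the 5 tested genes of other arrestin-fold proteins, ARRB1, a beta-arrestin, was higher in shMETTL14 (0.62 ± 0.073) and VPS26A (-0.57 ± 0.12) and VPS26B (-0.19 ± 0.069), of the retromer, were lower. None passed in shSETD2 by edgeR, whereas 2 passed by DESeq2.

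TXNIP is also known as a gene that FOXO factors regulate. The FOXO list, too, was put together with earlier results of these data known, and a part of FOXO in the TXNIP levels was not tested. Of 16 other FOXO-responsive genes tested, 10 were higher and 5 lower in shMETTL14, where 48.1% of all genes were called (23.1% higher, 25.1% lower). In shSETD2 8 were higher and 4 lower, where 40.6% of all genes were called (21.6% higher, 18.9% lower). The medians were 0.30 and 0.19, against -0.01 and 0.02 over all genes. The largest changes were in G6PC, which also stands in the carbohydrate response and glucose transporter lists, and in PCK1 and TNFSF10. PCK1, the gluconeogenic enzyme PEPCK, had 4.95 ± 0.077 CPM in shMETTL14 and 26.1 ± 0.038 CPM in shSETD2, against 0.885 ± 0.36 CPM in shCtrl. TNFSF10, the death ligand TRAIL, had 10.6 ± 0.28 and 10.2 ± 0.86 CPM, against 0.816 ± 0.13 CPM. The adjusted p was 2.26e-09 and 2.91e-16 for PCK1, and 1.42e-12 and 1.89e-12 for TNFSF10. KLF15 (log2 difference -0.98 in shMETTL14 and -0.67 in shSETD2), GADD45A (-0.54 and -0.22) and TRIB1 (-0.27 and -0.38) were lower in both lines. CDKN1B and SESN1 were lower in shMETTL14, and SESN3 was lower in shSETD2 (-0.79).

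The genes whose log2 CPM ran most like TXNIP over the 24 libraries were sought among 12281 genes with a mean of at least 1 CPM. They were EGFR (Pearson r = 0.988), TMCC1 (0.963), L3HYPDH (0.954), TMEM37 (0.951) and PTPRH (0.950), and ARRDC4 came at rank 18 (0.928). For ARRDC4 they were UACA (0.956), FAM20A (0.955), PSD4 (0.946), FAT4 (0.945) and RAB42 (0.940), with TXNIP at rank 12. A correlation does not measure the size of a change. At 0 h EGFR averaged 91.1, 65.3 and 35.4 CPM in shMETTL14, shSETD2 and shCtrl, against 204, 75.1 and 7.18 CPM for TXNIP. UACA averaged 52.7, 40.6 and 28.6 CPM in the same order, against 14.4, 5.77 and 1.30 CPM for ARRDC4. ARRDC3 had r = 0.516 with TXNIP, and ARRDC2, ARRDC1, MLXIP and MLXIPL between -0.46 and 0.26. These correlations are descriptions: the 24 libraries share 3 lines and 4 times. TXNIP and ARRDC4 were both chosen for higher levels in the knockdown lines, so their correlation with each other follows in part from that choice. By Spearman correlation 2 of the 5 genes were in common for TXNIP (EGFR and TMEM37) and 2 of the 5 for ARRDC4 (UACA and RAB42).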

How the data were processed

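RNA-seq was analysed in 24 HepG2 libraries (3 lines, 4 times, 2 libraries each), grouped by sample title. The count values per gene were used as the authors deposited them; the tools named per the submitters' processing notes include HTSeq 0.6.1p1, TopHat and cutadapt, with build GRCh37. The sources do not state whether counting used strand. The RPKM values deposited beside the counts match counts divided by exon length and column total, and served for levels per length and 1 alternative. Half-lives in hours per gene and line were used as the authors deposited them, with no error; per the series' design text they compare 1, 3 and 6 h with untreated cells. The count table holds 0 ERCC entries although a spike-in was added per the labels, so all values are relative.

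CPM were scaled by TMM. Genes passing filterByExpr (14887) were fitted with edgeR 4.0.16 in R 4.3.3 (robust quasi-likelihood, 12 group means, 12 residual degrees of freedom, two-sided), with Benjamini-Hochberg adjustment at 0.05 over all of them. Steps were tested on simulated data. Alternatives were RLE factors, library size alone, no filter, a mean of at least 5 CPM, a replicate block, DESeq2 1.42.0, limma 3.58.1 on log2(RPKM + 0.5) and leaving out each library. SE are log2 errors of the fit.

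The 7 genes, lists and tests were chosen with earlier results of these data known. Named are the 7 genes, METTL14 and SETD2, MLX, MYC, TXN, SLC2A1 and ITCH, up to 3 called genes per list with the largest change in each knockdown line at 0 h, and the 5 genes most correlated with TXNIP and with ARRDC4. Genes called lower in the carbohydrate response and FOXO lists are named as well. No protein sequence was used.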

Additional observations from a re-analysis of the deposited data

Results flagged for a closer look

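The level at 0 h differed between the knockdown lines, by the test of shMETTL14 against shSETD2, for 4 of the 5 genes other than TXNIP and ARRDC4, which were chosen on these libraries and are not counted here. The log2 difference of shMETTL14 minus shSETD2 was 0.61 for ARRDC2, 0.44 for ARRDC1, 0.33 for MLXIP and -0.42 for MLXIPL. Of all tested genes 52.2% passed the same test. The ARRDC1 call was lost without the second shSETD2 library (adjusted p = 0.101) or the first shMETTL14 library (adjusted p = 0.132). The MLXIPL call was lost with libraries scaled by size alone (-0.21, adjusted p = 0.0599) and by limma on RPKM (-0.20, adjusted p = 0.0871).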

How the results depend on the processing

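With libraries scaled by size alone in place of TMM, the median of all genes moved to 0.18 (log2) in shMETTL14 minus shSETD2, -0.14 in shSETD2 minus shCtrl at 0 h and -0.38, -0.29 and -0.27 at 6 h in shMETTL14, shSETD2 and shCtrl. The share of calls that were higher moved with it, to 71.3% against 44.1%, to 28.2% against 53.3%, and at 6 h to 28.5%, 32.3% and 33.0% against 52.1%, 48.6% and 52.6%. At 1 h it moved to 28.2%, 30.9% and 26.2% against 59.0%, 43.9% and 46.3%, and over 1, 3 and 6 h in shSETD2 to 31.3% against 44.7%. With RLE factors the share of slope calls that were higher was 57.0% against 24.3% in shSETD2 and 33.4% against 22.7% in shMETTL14. The MLXIP changes at 1 and 6 h that turned were -0.39 (size alone), -0.35 (limma) and -0.0033 (no filter) at 6 h in shMETTL14, -0.13 and -0.12 (size alone, limma) at 6 h in shSETD2, and -0.014 and -0.013 at 1 h in shCtrl. Its slope difference in shMETTL14 turned to 0.020 (5 CPM), and its first-hour difference between the knockdown lines to -0.060 (size alone), -0.032 (5 CPM) and -0.049 (limma). MLXIP over 1, 3 and 6 h in shMETTL14 minus shCtrl passed at 5 CPM (0.12, adjusted p = 0.0147). ARRDC1 turned to -0.10 and -0.089 at 6 h in shMETTL14, and to -0.060 and -0.055 over 1, 3 and 6 h in shSETD2 minus shCtrl, by size alone and limma. The TXNIP slope difference of shSETD2 turned to -0.036 by limma. The ARRDC2 slope difference in shMETTL14 turned to -0.0040 by size alone and -0.0019 by limma, and its first-hour difference to -0.0024 and -0.081. Leaving out single libraries turned ARRDC1 over 1, 3 and 6 h in shSETD2 (-0.027 to 0.091), ARRDC3 over 1, 3 and 6 h in shMETTL14 (-0.092 to 0.027), the slope and first-hour differences of MLXIP, MLXIP at 6 h in shMETTL14 (-0.0089 to 0.11) and in shCtrl (-0.15 to 0.024), and the ARRDC4 slope in shSETD2 (-0.16 to 0.020). Slope differences of ARRDC2, ARRDC1 and MLXIPL in shSETD2 also turned when single libraries were left out. So did the slope difference in shMETTL14 and the first-hour difference of ARRDC2. The cause was not tested. Slope calls over all genes numbered 437 in shMETTL14, against 688 at a mean of at least 5 CPM, and 412 in shSETD2, against 660 with no filter. First-hour differences numbered 19, against 54 by DESeq2, 31 by size alone, 31 at 5 CPM and 55 with no filter. Without single libraries the counts ran from 241 to 399 (slope, shMETTL14), 161 to 2584 (slope, shSETD2, the highest without the second 6 h shSETD2 library), 5 to 7 (first hour), and at 1 h from 3588 to 4770 in shMETTL14, 2236 to 3814 in shSETD2 and 2609 to 3047 in shCtrl. Deviations of libraries with the same replicate number correlated between groups from -0.20 to 0.65 (median 0.17), with 36 of 66 pairs of groups over 0.1. Libraries of the same number thus moved together in part, and the main fit has no term for it. A fit with the replicate number as a block gave 700 and 777 slope calls in shMETTL14 and shSETD2 and 65 first-hour differences. With the block the ARRDC3 first-hour difference passed (-0.85, adjusted p = 0.0275), as did ARRDC1 at 1 h in shMETTL14 (0.24, adjusted p = 0.0389). MLXIP passed with the block at 1 h in shMETTL14 (0.15, adjusted p = 0.0230) and at 6 h in shSETD2 (0.16, adjusted p = 0.0211). It also passed over 1, 3 and 6 h in shMETTL14 (0.077, adjusted p = 0.0363). The MLXIPL slope difference in shSETD2 hung on the 6 h pair: it was 0.023 in the main fit, 0.056 without the second 6 h library and -0.016 without the first. By limma on RPKM the ARRDC4 slope differences passed, at -0.21 in shMETTL14 and -0.13 in shSETD2. At 0 h the fold change of ARRDC4 over shCtrl by limma was 2.43 in shMETTL14 and 1.17 in shSETD2 (log2), against 3.45 and 2.14, where shCtrl lies under the pseudocount. Among the pathway lists at 0 h, the calls in NEDD4-family ligases numbered 2 in shMETTL14, against 4 by size alone, and 5 in shSETD2, against 3 by limma. Those in other arrestin-fold genes numbered 3, against 5 with RLE factors, and 0, against 2 with RLE factors, size alone, 5 CPM, DESeq2 or limma. In the thioredoxin system they numbered 6 in shMETTL14, against 11 without the first shCtrl library, and 10 in shSETD2, against 5 without the second shSETD2 library. Low counts limit ARRDC4 in shCtrl, at 8 to 39 per library.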
